A study of Mus musculus with 27 samples.

Results

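Transcripts of 32 genes of cholesterol and fatty acid synthesis were followed through brain, meninges and skull of mice after ultraviolet irradiation of the head. The genes were taken by symbol from a list of enzymes, regulators and a carrier of the sterol regulatory pathway, and all 32 were found among the 37095 symbols of the count table. Messenger RNA was sequenced from 9 groups of 3 libraries. In each tissue these were an untreated control, a group taken 0.5 h and a group taken 24 h after ultraviolet B light (UVB, 311 nm, 2 mW) had been directed at the interparietal bone, the bone at the back of the skullcap. The labels give no strain, age, sex or genetic alteration, and do not say whether control mice were handled or shaved in the same way or at what hour of day any tissue was taken.

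Cholesterol is built from acetyl-CoA. The mevalonate pathway turns acetyl-CoA into isoprenoid units, farnesyl diphosphate is joined into squalene, and squalene is cyclized to lanosterol and then trimmed to cholesterol. The sterol regulatory element binding proteins (SREBPs, encoded by Srebf1 and Srebf2) are transcription factors that are held in the endoplasmic reticulum with Scap by the Insig proteins when sterol is plentiful, and are released to switch on these enzymes when it is scarce. The same family of factors drives fatty acid synthesis. In brain, which makes its own cholesterol, much of this synthesis serves myelin.

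Library totals lay between 14208961 and 27305294 counts, and all 32 genes passed the filter on low counts in every fit. Levels are given in CPM, the usual scaling of a count to its library total, computed within each tissue. A gene was called changed at an adjusted p below 0.05 in edgeR's quasi-likelihood test, with Benjamini-Hochberg adjustment over all tested genes, and every adjusted p below is from that test unless another tool is named. Errors of levels are SD over 3 libraries, and errors of log2 fold changes are SE. The labels do not say that the libraries of a group came from separate mice, so the p-values measure only the spread between these libraries. In controls the summed level of 10 neuron markers was 8728 to 9387 CPM in brain and 42.7 to 55.9 CPM in skull, and the summed level of 8 osteoblast markers was 40.6 to 81.3 CPM in brain and 4636 to 7072 CPM in skull. Meninges held 9 meningeal fibroblast markers at 41893 to 74354 CPM, beside pineal and choroid plexus markers at levels given with its results. The same 9 markers summed to 544 to 718 CPM in brain controls and 94882 to 167216 CPM in skull controls. They thus set meninges apart from brain but not from skull. Each library is RNA from a whole tissue, so a change in the number of cells of a type and a change in RNA per cell cannot be told apart.

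The promoters of the genes with the strongest calls in skull at 24 h are shown because their transcripts moved together there. Of the 32 genes, 26 have a promoter entry in RefSeq (GRCm38.p6), a window of 250 bases before to 50 bases after the annotated start. The 5 windows below belong to Msmo1, Hmgcs1, Cyp51, Lss and Idi1, the genes with an entry among the 8 with the smallest p. Capitals mark matches to the loose sterol regulatory element TCACNCNA and to the CCAAT box, the site of the NF-Y factor, which reads ATTGG on the other strand.
Msmo1, chr8:64733529-64733828, minus strand: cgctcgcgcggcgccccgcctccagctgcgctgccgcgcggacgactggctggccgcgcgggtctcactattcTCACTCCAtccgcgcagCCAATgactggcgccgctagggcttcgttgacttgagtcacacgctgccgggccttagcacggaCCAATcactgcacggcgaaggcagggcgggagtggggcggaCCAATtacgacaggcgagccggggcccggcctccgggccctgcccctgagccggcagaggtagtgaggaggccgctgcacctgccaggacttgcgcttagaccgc
Hmgcs1, chr13:119690101-119690400, plus strand: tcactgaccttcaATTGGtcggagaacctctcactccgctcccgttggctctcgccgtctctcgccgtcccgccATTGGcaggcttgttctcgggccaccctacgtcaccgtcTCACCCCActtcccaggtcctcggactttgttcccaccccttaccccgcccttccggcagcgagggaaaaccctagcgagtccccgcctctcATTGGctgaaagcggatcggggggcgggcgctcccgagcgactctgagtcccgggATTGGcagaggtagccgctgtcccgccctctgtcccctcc
Cyp51, chr5:4104648-4104947, minus strand: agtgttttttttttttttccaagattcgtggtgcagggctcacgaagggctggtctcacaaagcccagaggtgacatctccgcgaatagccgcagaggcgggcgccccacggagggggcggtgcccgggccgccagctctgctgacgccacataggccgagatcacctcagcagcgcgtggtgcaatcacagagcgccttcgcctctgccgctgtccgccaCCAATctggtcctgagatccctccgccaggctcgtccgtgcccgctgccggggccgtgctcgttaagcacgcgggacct
Lss, chr10:76531355-76531654, plus strand: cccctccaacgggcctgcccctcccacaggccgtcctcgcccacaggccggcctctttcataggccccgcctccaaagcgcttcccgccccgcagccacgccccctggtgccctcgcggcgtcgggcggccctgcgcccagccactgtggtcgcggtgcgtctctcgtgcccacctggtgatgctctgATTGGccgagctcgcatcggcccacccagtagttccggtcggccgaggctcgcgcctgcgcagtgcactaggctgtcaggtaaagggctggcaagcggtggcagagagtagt
Idi1, chr13:8885356-8885655, plus strand: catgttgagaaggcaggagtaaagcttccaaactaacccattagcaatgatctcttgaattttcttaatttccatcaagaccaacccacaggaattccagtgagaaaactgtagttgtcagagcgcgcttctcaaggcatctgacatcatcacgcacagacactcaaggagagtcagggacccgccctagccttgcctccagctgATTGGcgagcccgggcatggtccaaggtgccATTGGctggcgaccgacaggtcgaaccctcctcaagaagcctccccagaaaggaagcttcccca
Hmgcs1 alone held the strict element TCACNCCAC, which is in 3.85% of the genes of the set with an entry and in 1.44% of all 27025 genes with one. The loose form TCACNCNA, which contains every match of the strict one and was added after the strict one had been searched, was in 7 of the 26 (26.9%, against 12.5% of all genes). These 7 were Acss2, Fasn, Hmgcs1, Msmo1, Nsdhl, Srebf1 and Srebf2. The CCAAT box was in 21 of 26 (80.8%, against 41.1%), and Msmo1 held 3 copies and Hmgcs1 4. The GC box GGGCGG, read on both strands, was also in 21 of 26 (80.8%, against 38.2%), and the E-box CACGTG in 5 of 26 (19.2%, against 8.09%). By response in skull at 24 h, the CCAAT box was in 13 of 15 called genes and 8 of 11 others, the loose sterol element in 5 of 15 and 2 of 11, the GC box in 12 of 15 and 9 of 11, and the E-box in 2 of 15 and 3 of 11. All of these are matches of letters in a window and not measured sites.

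In skull 24 h after UVB, the transcripts of cholesterol synthesis stood higher than in controls. Of the 32 genes, 17 rose and 2 fell. Of all genes tested in skull, 10.6% rose and 10.4% fell. The 32 genes were chosen with earlier results of these data known, so the contrast with these shares is not independent of that choice. The median log2 fold change was 0.41 over the 32 genes and 0.00 over all tested genes. The rise lay in the pathway from acetoacetyl-CoA to cholesterol: 6 of 8 genes of the mevalonate pathway and 8 of 11 of the sterol branch rose, with median log2 fold changes of 0.67 and 0.99. Of the 6 genes for regulators and the sterol carrier, 2 rose and 1 fell, and of the 7 genes of fatty acid synthesis 1 rose. The 17 rises ran from 1.24-fold to 2.93-fold, and in each of the 17 genes every 24 h library stood above every control library. These genes were picked by a test on the same libraries, so this separation adds no support. Its share over all tested genes was not counted.

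**Figure D1:**
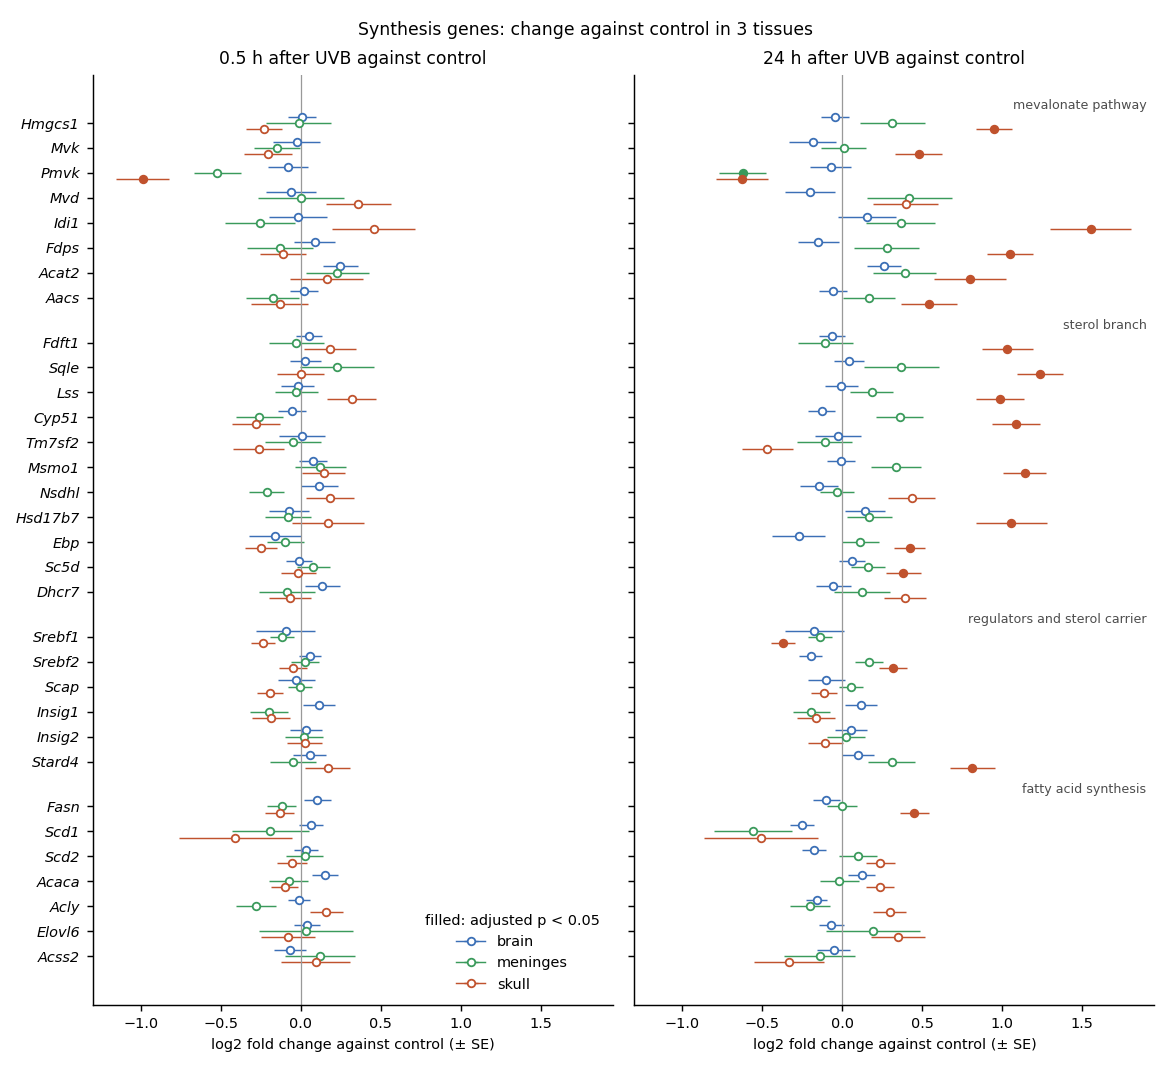
Log2 fold change (± SE) against the control of the same tissue for each of the 32 genes, at 0.5 h and at 24 h, with brain in blue, meninges in green and skull in orange and filled points for an adjusted p below 0.05. At 24 h, 19 skull points and 1 meninges point are filled, and at 0.5 h the only filled point is Pmvk in skull.

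Early in the mevalonate pathway, Hmgcs1 makes HMG-CoA. It stood at 34.7, 30.5 and 38.5 CPM in the skull controls, at 32.4, 29.8 and 26.2 CPM at 0.5 h and at 69.9, 59.8 and 69.7 CPM at 24 h. The 24 h libraries lay apart from the other 6, and the log2 fold change against control was 0.95 ± 0.11 (1.93-fold, adjusted p = 2.22e-04). Fdps, which makes farnesyl diphosphate, had 23.2, 19.6 and 19.5 CPM in controls and 47.5, 38.1 and 43.4 CPM at 24 h. No library overlapped, and the log2 fold change was 1.05 ± 0.14 (adjusted p = 4.77e-04). Idi1, the isomerase that supplies the reactive isoprenoid unit, showed the largest rise and the lowest level. It had 2.62, 2.28 and 1.86 CPM in controls, 2.46, 3.36 and 3.49 CPM at 0.5 h and 7.86, 5.20 and 6.83 CPM at 24 h. These are 27 to 44 counts per control library and 85 to 139 counts per 24 h library. Its log2 fold change was 1.55 ± 0.25 (2.93-fold, adjusted p = 0.0014), and 30.5% of the 50-base stretches of its exons occur in other genes as well.

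In Acat2, Aacs and Mvk of the same pathway the rises were smaller than in Hmgcs1, Fdps and Idi1, and less even. Acat2, the cytosolic acetoacetyl-CoA thiolase, went from 7.20 ± 2.44 to 12.5 ± 1.51 CPM (log2 fold change 0.80 ± 0.23, adjusted p = 0.0258). It shares 45.9% of its 50-base stretches with Acat3, which stood at a mean of 0.260 CPM in skull controls. Aacs, which activates acetoacetate, went from 20.1 ± 4.99 to 29.3 ± 2.36 CPM (log2 fold change 0.54 ± 0.17, adjusted p = 0.0456), and Mvk, mevalonate kinase, from 11.6 ± 0.878 to 16.1 ± 2.22 CPM (log2 fold change 0.48 ± 0.15, adjusted p = 0.0364). The calls of all 3 depended on single libraries. Acat2 lost its call without the second or the third control or the first or the second 24 h library (adjusted p up to 0.0763), and Aacs without any of these, the third 24 h library or the first 0.5 h library (up to 0.126). Mvk lost it without the first or the second control or the first or the third 24 h library (up to 0.141). Mvd, the decarboxylase, had a log2 fold change of 0.40 ± 0.20 (adjusted p = 0.189).

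Pmvk, the phosphomevalonate kinase that acts between Mvk and Mvd, went the other way. In skull it stood at 28.1, 18.6 and 27.3 CPM in controls, at 14.3, 10.9 and 12.2 CPM at 0.5 h and at 15.3, 15.7 and 16.8 CPM at 24 h. Both irradiated groups lay below every control, and Pmvk was the 1 gene of the set called at 0.5 h in skull (log2 fold change -0.99 ± 0.17, adjusted p = 0.00893), where 2.94% of all tested genes fell. At 24 h the log2 fold change was -0.63 ± 0.16 (adjusted p = 0.0182). Both comparisons use the same 3 controls. The call at 0.5 h was lost without the second 0.5 h library (adjusted p = 0.0617), and the call at 24 h without the first control, the first 24 h or the second 24 h library (adjusted p up to 0.0759).

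In the sterol branch, Sqle, squalene epoxidase, rose most clearly among the early steps. It had 11.9, 12.2 and 8.70 CPM in the skull controls, 11.0, 10.4 and 11.5 CPM at 0.5 h and 27.5, 25.9 and 24.0 CPM at 24 h. All 24 h libraries stood above the other 6, and the log2 fold change was 1.23 ± 0.14 (2.35-fold, adjusted p = 1.84e-04). Fdft1, squalene synthase, had 15.5, 11.0 and 11.1 CPM in controls and 29.7, 25.0 and 22.3 CPM at 24 h (log2 fold change 1.03 ± 0.16, adjusted p = 0.00108). Its exons share 774 bases with Ctsb on the opposite strand, and Ctsb itself had a log2 fold change of 0.08 ± 0.10 (adjusted p = 0.636) in the same comparison. Lss, which closes squalene epoxide into lanosterol, had 7.73, 8.88 and 7.32 CPM in controls and 16.1, 16.1 and 15.3 CPM at 24 h (log2 fold change 0.99 ± 0.15, adjusted p = 0.00105).

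The enzymes that trim lanosterol followed. Cyp51, the lanosterol demethylase, had 19.1, 20.8 and 18.3 CPM in controls, 19.3, 14.0 and 14.9 CPM at 0.5 h and 48.8, 35.1 and 39.7 CPM at 24 h (log2 fold change against control 1.08 ± 0.15, adjusted p = 5.08e-04). Msmo1, the methylsterol monooxygenase, had the smallest adjusted p of the set. It had 13.2, 14.7 and 11.7 CPM in controls, 15.7, 13.7 and 14.5 CPM at 0.5 h and 29.9, 25.6 and 32.1 CPM at 24 h. The control and 0.5 h libraries lay between 11.7 and 15.7 CPM, below all 24 h libraries, and the log2 fold change was 1.14 ± 0.13 (2.20-fold, adjusted p = 1.72e-04). Hsd17b7, the ketosteroid reductase, rose by a log2 fold change of 1.06 ± 0.22 (adjusted p = 0.00625), Ebp, the sterol isomerase, by 0.42 ± 0.10 (adjusted p = 0.0101) and Sc5d, the sterol desaturase, by 0.38 ± 0.11 (adjusted p = 0.0278). Sc5d lost its call without the first or the second control or the first or the third 24 h library (adjusted p up to 0.0997). Ebp and Sc5d thus had smaller log2 fold changes than Sqle, Cyp51 and Msmo1, while Hsd17b7 lay close to Cyp51. These differences between genes were not tested.

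A remaining 3 genes of the branch were not called. Nsdhl, the sterol dehydrogenase that acts with Msmo1, had a log2 fold change of 0.43 ± 0.15 (adjusted p = 0.0545), and Dhcr7, a last-step reductase, one of 0.39 ± 0.13 (adjusted p = 0.0504). Tm7sf2, a sterol reductase, lay on the other side of zero. It had 11.8, 10.4 and 10.5 CPM in controls and 8.77, 8.02 and 6.83 CPM at 24 h, so that the groups did not overlap, with a log2 fold change of -0.47 ± 0.16 (adjusted p = 0.0568). The share of all tested genes with such separation was not counted. The exons of Tm7sf2 share 532 bases with Vps51 on the same strand.

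**Figure D2:**
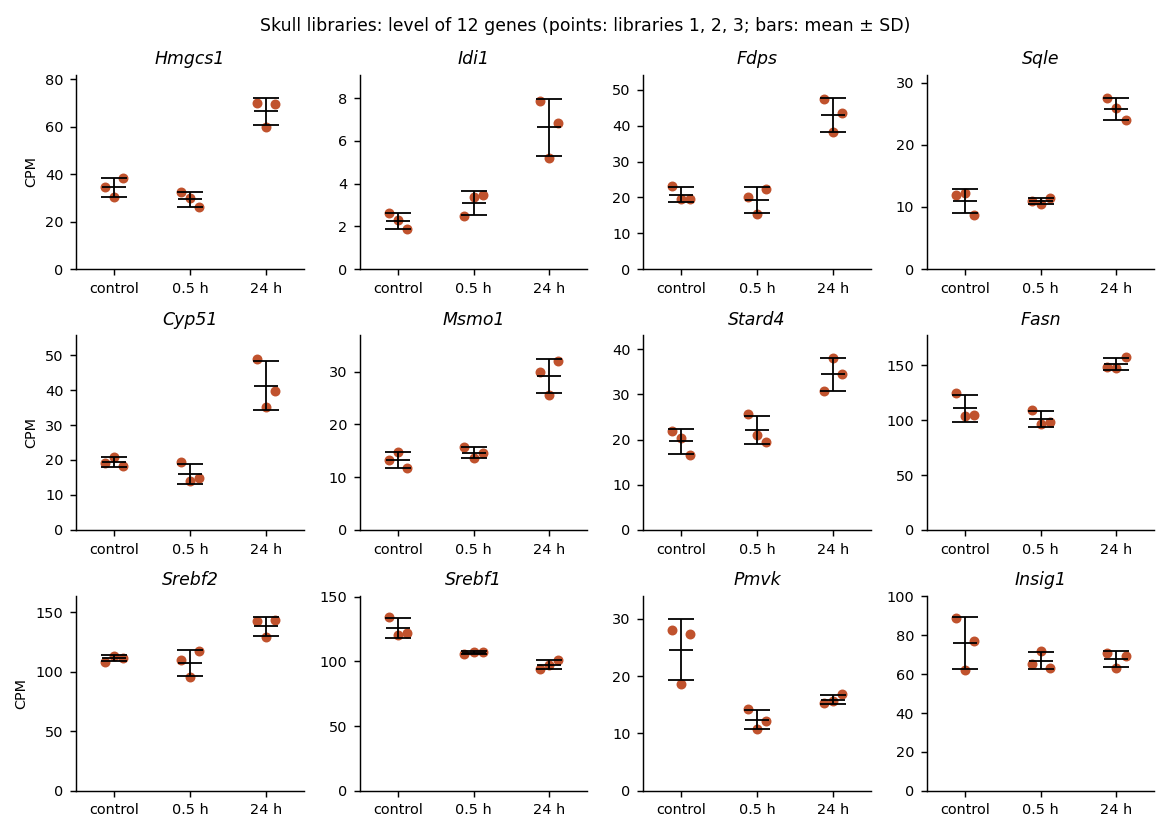
Level in CPM of 12 genes in the 9 skull libraries, with a point for each library and bars for the mean ± SD of each group. Hmgcs1, Idi1, Fdps, Sqle, Cyp51, Msmo1, Stard4, Fasn and Srebf2 have all 3 libraries at 24 h above the other 6, Srebf1 and Pmvk have their controls above both irradiated groups, and the groups of Insig1 overlap.

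The regulators did not move as one. Srebf2, which encodes the factor most tied to cholesterol synthesis, had 108, 113 and 112 CPM in the skull controls and 142, 129 and 143 CPM at 24 h, with a log2 fold change of 0.31 ± 0.09 (adjusted p = 0.024). The call was lost without the first control or the first or the third 24 h library (adjusted p up to 0.0831). Srebf1, which encodes the factor most tied to fatty acid synthesis, had 135, 120.5 and 122 CPM in controls, 105, 108 and 107 CPM at 0.5 h and 93.9, 97.0 and 101 CPM at 24 h. Its libraries at 24 h lay below all others, with a log2 fold change against control of -0.37 ± 0.07 (adjusted p = 0.00495), while the value at 0.5 h was -0.24 ± 0.07 (adjusted p = 0.0895). Stard4, a sterol carrier protein, had 21.9, 20.3 and 16.6 CPM in controls and 30.8, 38.1 and 34.4 CPM at 24 h (log2 fold change 0.81 ± 0.14, adjusted p = 0.002). Insig1, which anchors the Scap complex and is itself a known SREBP target, was not called. It had 88.9, 62.0 and 77.3 CPM in controls and 71.0, 63.0 and 69.5 CPM at 24 h, which overlap (log2 fold change -0.17 ± 0.12, adjusted p = 0.354). Insig2 (-0.11 ± 0.11, adjusted p = 0.534) and Scap (-0.12 ± 0.08, adjusted p = 0.349) were not called either.

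Of the fatty acid genes, Fasn, the fatty acid synthase, was called. It had 125, 104 and 104 CPM in the skull controls, 109.5, 96.4 and 98.2 CPM at 0.5 h and 149, 148 and 158 CPM at 24 h (log2 fold change against control 0.45 ± 0.09, adjusted p = 0.00522). Acly, which releases acetyl-CoA from citrate, had a log2 fold change of 0.30 ± 0.10 (adjusted p = 0.0601), Acaca, which makes malonyl-CoA, one of 0.24 ± 0.09 (adjusted p = 0.0699) and Scd2, a stearoyl-CoA desaturase, one of 0.24 ± 0.09 (adjusted p = 0.0872). In these 3 genes the 24 h libraries lay above the controls without passing the test. How many of all tested genes separate in this way was not counted, so the separation is a description. Acaca shares 52.6% of its 50-base stretches with Gm5182, whose own log2 fold change was 0.60 ± 0.27 (adjusted p = 0.140). Scd1, the other desaturase, stood at 206 CPM in the first skull control and at 77.2 to 107 CPM in the other 8 skull libraries, and its log2 fold change of -0.51 ± 0.36 (adjusted p = 0.368) rests on that library. Elovl6, an elongase, had 0.35 ± 0.17 (adjusted p = 0.166) and Acss2, which activates acetate, -0.34 ± 0.22 (adjusted p = 0.306).

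Of the 19 calls in skull at 24 h, 13 held whichever of the 9 skull libraries was left out. These were Msmo1, Sqle, Hmgcs1, Fdps, Cyp51, Lss, Fdft1, Idi1, Stard4, Srebf1, Fasn, Hsd17b7 and Ebp. The calls of Pmvk, Srebf2, Acat2, Sc5d, Mvk and Aacs were each lost in 3 to 6 of the 9 fits, and without the first 24 h library all 6 were lost at once. The 24 h libraries, which gave these calls, can also be described singly. Relative to the control mean, the median log2 ratio of the 32 genes was 0.45, 0.33 and 0.44 in the 24 h libraries and 0.10, -0.05 and -0.07 in the controls. In each 24 h library 24 of the 32 genes stood above the control mean. How many of all tested genes did so was not counted. In the sterol branch the 3 libraries at 24 h had medians of 1.01, 0.72 and 0.83.

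**Figure D3:**
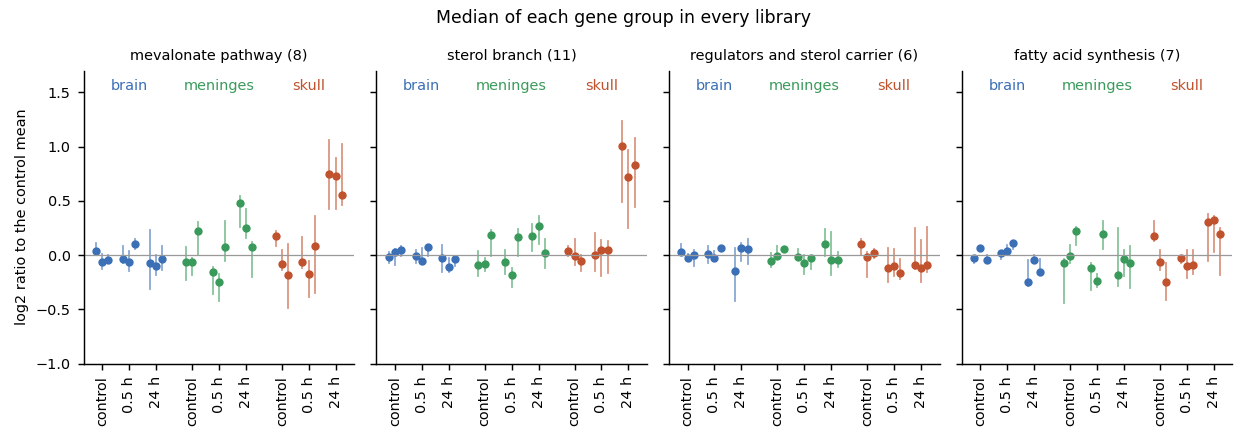
Median log2 ratio to the tissue's own control mean in each of the 27 libraries, with a panel for each of the 4 gene groups and lines for the quartiles over its genes. The skull libraries at 24 h stand at 0.55 to 0.75 in the mevalonate pathway and at 0.72 to 1.01 in the sterol branch, above all other libraries in both panels.

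Against 0.5 h instead of control, the 24 h skull libraries showed 19 of the 32 genes higher and none lower, with 8.39% of all tested genes higher. This comparison shares the 24 h libraries with the one above. The 12 with the smallest p were Hmgcs1 (log2 fold change 1.17), Cyp51 (1.36), Sqle (1.23), Fdps (1.16), Msmo1 (0.99), Ebp (0.67), Fasn (0.58), Fdft1 (0.85), Mvk (0.68), Stard4 (0.64), Idi1 (1.09) and Lss (0.66). Fatty acid genes were called 3 times here: Fasn, Acaca (0.34 ± 0.09, adjusted p = 0.0199) and Scd2 (0.29 ± 0.09, adjusted p = 0.0496). Fasn kept its call whichever library was left out. Acaca lost its call in 4 of 9 such fits (adjusted p up to 0.0921) and Scd2 in 7 of 9 (up to 0.165). Ctsb, which overlaps Fdft1, rose as well (0.39 ± 0.10, adjusted p = 0.0203). Of the 19 calls, 11 held without any one library: those of the 12 genes named first, except Idi1. The total ran from 11 to 21. It was lowest, at 11, without the first 24 h library.

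Markers of other cells of the skull were read in the same comparison of 24 h with control, where 10.6% of all tested genes rose and 10.4% fell. The counts of single lists are small and are given as a description. The summed level of 8 erythroid markers was 5955, 5367 and 5632 CPM in controls and 3206, 4682 and 3027 CPM at 24 h, with 4 of 8 lower. The summed level of 8 markers of B cell precursors was 280.3, 288 and 244 CPM in controls and 131, 190.5 and 114 CPM at 24 h, with 6 of 8 lower. Both marrow lineages stood lower in every 24 h library, least so in the second. Osteoblast markers summed to 4636 to 7072 CPM in controls and 6197 to 7271 CPM at 24 h, with 3 of 8 higher and 1 lower. Neutrophil markers summed to 5659 to 9737 CPM in controls and 4329 to 6311 CPM at 24 h, with 1 of 8 lower. Adipocyte markers, of which 4 of 8 were tested and 1 fell, summed to 67.6 to 135 CPM in controls and 60.7 to 69.8 CPM at 24 h. Proliferation markers included 1 of 8 that rose. The summed levels of 4 further lists did not overlap between the groups, and how often this holds for other sums of genes was not tested. Microglia and macrophage markers stood at 741 to 775 CPM in controls and 831 to 865 CPM at 24 h, with 1 of 8 higher and 2 lower, and neuron markers at 42.7 to 55.9 and 58.8 to 71.5 CPM, with 1 of 9 tested higher and 2 lower. Oligodendrocyte markers stood at 198 to 211 CPM in controls and 119 to 137 CPM at 24 h, with 1 of 9 tested lower, and keratinocyte and sebocyte markers at 6.22 to 7.13 and 4.07 to 4.71 CPM, with 1 of 4 tested lower. Of the other lists, astrocyte markers had 2 of 8 lower and endothelial markers 1 of 7 lower. Skeletal muscle markers varied widely, from 758 to 2992 CPM in controls and from 1011 to 2062 CPM at 24 h, ranges that overlap. The defining keratinocyte genes Krt5 and Krt14 had medians of 0 CPM over the skull libraries. The part of these markers in the rise of the synthesis genes was not tested.

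Whether the 24 h change differed between tissues was tested as a difference of differences over all 27 libraries. The labels do not say whether brain, meninges and skull libraries with the same number came from the same mouse, and the test treats them as separate. The change in skull exceeded that in brain for 14 of the 32 genes, and in no gene was it called lower, with 3.33% of all tested genes called higher. The differences in log2 fold change were 1.38 ± 0.30 for Idi1, 1.20 ± 0.20 for Cyp51, 1.19 ± 0.26 for Fdps, 1.18 ± 0.26 for Sqle, 1.13 ± 0.19 for Msmo1 and 1.09 ± 0.22 for Fdft1. They were 0.98 ± 0.22 for Hmgcs1, 0.98 ± 0.18 for Lss, 0.68 ± 0.18 for Ebp, 0.54 ± 0.14 for Fasn and 0.50 ± 0.12 for Srebf2. The adjusted p of these 11 ran from 7.00e-04 to 0.0222. Hsd17b7, Stard4 and Nsdhl completed the 14, with adjusted p of 0.0299, 0.0313 and 0.0294. The 5 calls of Ebp, Fasn, Hsd17b7, Stard4 and Nsdhl were lost in 1 to 9 of the 12 fits without one library, Fasn without the first brain library at 24 h alone. Against meninges, 2 of the 32 changes in skull were called larger, with 0.321% of all tested genes called so: Fdft1 (1.15 ± 0.22, adjusted p = 0.0123) and Lss (0.82 ± 0.18, adjusted p = 0.0374). The call of Lss was lost in 9 of 12 fits without one library (adjusted p up to 0.106), and held without the first meninges control, the second skull control or the second meninges library at 24 h. The median difference over the 32 genes was 0.36 against meninges and 0.53 against brain.

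**Figure D4:**
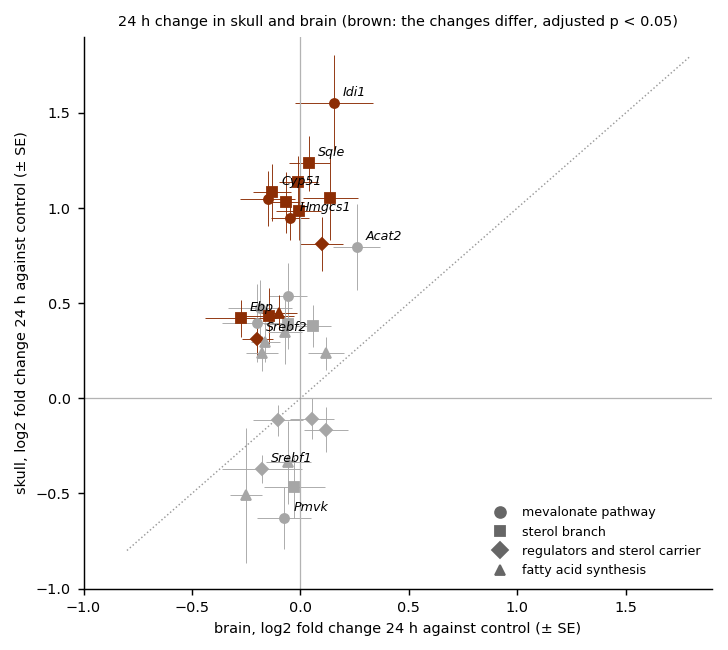
Log2 fold change at 24 h in skull (vertical axis) against that in brain (horizontal axis) for the 32 genes, with SE bars, a symbol for each gene group and brown for the 14 genes whose changes differed between the tissues. Brain values stay between -0.27 and 0.26, while skull values run from -0.63 to 1.55.

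In brain no gene of the set was called at either time. At 0.5 h edgeR called 0 of 32 (1 with an unadjusted p below 0.05, and 0 by DESeq2 and by limma-voom), with 0.0055% of all tested genes called. At 24 h it called 0 of 32 (5 with an unadjusted p below 0.05, 1 by DESeq2 and 0 by limma-voom), with 2.62% called. At 24 h against 0.5 h it called 0 of 32 (6 with an unadjusted p below 0.05, 2 by DESeq2 and 0 by limma-voom), with 0.220% called. Of all 18172 tested genes, 955, 3318 and 2208 had an unadjusted edgeR p below 0.05 in these comparisons, in this order. The gene nearest to a call at 24 h was Scd1, with 226, 239 and 204 CPM in controls and 187, 200.3 and 175 CPM at 24 h, groups that do not overlap (log2 fold change -0.25 ± 0.08, adjusted p = 0.0842). How many of all genes tested in brain separate in this way was not counted. Srebf2 had 244, 238 and 244 CPM in controls and 189, 220.0 and 224 CPM at 24 h (-0.20 ± 0.07, adjusted p = 0.143). Scd2, the most abundant transcript of the set in brain, had 1513, 1608 and 1495 CPM in controls and 1234, 1468 and 1378 CPM at 24 h (-0.18 ± 0.07, adjusted p = 0.199). Acat2 had a log2 fold change of 0.26 ± 0.11 (adjusted p = 0.209). At 0.5 h the nearest were Acat2 (0.25, adjusted p = 0.930), Acaca (0.15), Fasn (0.11) and Dhcr7 (0.14), and at 24 h against 0.5 h they were Scd1 (-0.31, adjusted p = 0.0933), Srebf2 (-0.26), Scd2 (-0.21) and Fasn (-0.21).

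Meninges held 1 call. The markers of neighboring structures varied widely between its libraries. The summed level of 6 choroid plexus markers was 96.6, 4967 and 6364 CPM in controls and 14242, 117 and 3853 CPM at 24 h, and that of 7 skeletal muscle markers reached 4874 CPM in the second control and lay at 30.8 and 45.4 CPM in the others. Pineal markers summed to 1229 to 1466 CPM in controls and 851 to 1004 CPM at 24 h, with 3 of 8 lower. Their part in the meninges values, the control levels included, was not tested. At 24 h Pmvk had 29.2, 27.9 and 28.4 CPM against 47.6, 39.6 and 44.3 CPM in controls, groups that do not overlap (log2 fold change -0.62 ± 0.15, adjusted p = 0.0271), where 4.45% of all tested genes fell. The call was lost without the first or the third control or any of the 24 h libraries, with an adjusted p up to 0.0849. At 0.5 h Pmvk had 27.1, 25.7 and 38.8 CPM (-0.52 ± 0.15, adjusted p = 0.138). Of the 17 genes that rose in skull at 24 h, 15 had positive log2 fold changes here and 2 negative ones, from -0.11 for Fdft1 to 0.39 for Acat2, and none passed. The share of positive values among all genes that rose in skull was not counted, so these signs are a description. Cyp51 had 30.9, 30.5 and 39.7 CPM in controls and 45.9, 45.8 and 37.7 CPM at 24 h, which overlap (0.36 ± 0.15, adjusted p = 0.164). Stard4 had a log2 fold change of 0.31 ± 0.14 (adjusted p = 0.224) and Scd1 of -0.56 ± 0.24 (adjusted p = 0.208). Over the 32 genes the median log2 fold change at 24 h was 0.12, against 0.02 over all tested genes, and the 3 libraries stood at 0.19, 0.15 and 0.01. At 0.5 h edgeR called 0 of 32 (2 with an unadjusted p below 0.05, 1 by DESeq2 and 0 by limma-voom), with 0.874% of all tested genes called, and Acly (-0.28), Nsdhl (-0.21) and Cyp51 (-0.26) were nearest after Pmvk. At 24 h against 0.5 h it called 0 of 32 (3 with an unadjusted p below 0.05, 1 by DESeq2 and 1 by limma-voom), with 2.34% called, and Cyp51 (0.62 ± 0.15, adjusted p = 0.0583), Idi1 (0.62), Stard4 (0.36) and Aacs (0.34) were nearest. Of all 18542 tested genes, 2517 had an unadjusted edgeR p below 0.05 at 0.5 h against control and 2997 at 24 h against 0.5 h.

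The other tests between tissues gave no call. At 0.5 h edgeR called 0 of 32 between meninges and brain (1 with an unadjusted p below 0.05, and 0 by DESeq2 and by limma-voom), with 0.0093% of all tested genes called. Between skull and brain it called 0 (1 with an unadjusted p below 0.05, 1 by DESeq2 and 0 by limma-voom), with 0.209% called, and Pmvk was nearest (-0.90 ± 0.23, adjusted p = 0.121). Between skull and meninges it called 0 (3 with an unadjusted p below 0.05, and 0 by DESeq2 and by limma-voom), with 0.0093% called. At 24 h it called 0 between meninges and brain (3 with an unadjusted p below 0.05, and 0 by DESeq2 and by limma-voom), with 1.32% called, and Srebf2 was nearest (0.34 ± 0.12, adjusted p = 0.176). Of all 21500 tested genes, 1327, 2201, 1254 and 2988 had an unadjusted edgeR p below 0.05 in these tests, in this order. After Pmvk, the genes nearest to a call in skull at 0.5 h were Srebf1, Ebp (-0.25 ± 0.10, adjusted p = 0.163) and Scap (-0.19 ± 0.08, adjusted p = 0.186).

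Before any irradiation the 3 tissues differed widely in these transcripts. Per kilobase of exon, 25 of the 32 genes were highest in brain and 27 were lowest in skull. Scd2 led in brain with 280.0 ± 10.6 CPM per kilobase, against 77.8 ± 5.46 in meninges and 46.4 ± 1.86 in skull. Hmgcs1 followed the same order with 39.2 ± 1.88, 13.9 ± 2.82 and 8.16 ± 0.923 CPM per kilobase. Idi1 was the lowest of the 32 in brain and skull, with 2.38 ± 0.190 and 0.698 ± 0.119 CPM per kilobase. Tested between control groups, 20 of 32 genes were lower and 5 higher in meninges than in brain, with 33.7% of all tested genes lower and 36.8% higher. In skull 25 were lower and 4 higher than in brain, with 38.3% lower and 37.3% higher. Against meninges 17 were lower and 1 higher in skull, with 26.5% lower and 21.6% higher.

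The exceptions were regulators and a few enzymes. Srebf1 stood at 10.7 ± 1.06 CPM per kilobase in brain, 24.1 ± 1.28 in meninges and 24.2 ± 1.54 in skull, while Srebf2 stood at 33.5 ± 0.520, 18.6 ± 1.69 and 16.8 ± 0.358. Meninges and skull did not differ beyond their spread in either gene (adjusted p = 0.970 and 0.170). Ebp was higher in meninges (log2 fold change 1.26 ± 0.13) and in skull (1.53 ± 0.13) than in brain. Acly stood apart in meninges, with 145.7 ± 22.8 CPM per kilobase against 39.4 ± 0.426 in brain and 23.4 ± 3.34 in skull. Mvk and Pmvk were also higher in meninges than in brain, and Insig1 and Insig2 were higher in skull than in brain. Some genes that rose in skull at 24 h lay far below brain in control skull: Lss had a log2 fold change there of -2.36 ± 0.13, Sqle of -2.30 ± 0.19, Msmo1 of -2.17 ± 0.14 and Idi1 of -1.77 ± 0.22. Fdps, which rose by more than Lss, lay only -0.60 ± 0.18 from brain, and Ebp, which rose as well, lay above it. Scd2 (-2.59 ± 0.11) and Elovl6 (-2.40 ± 0.22) lay as far below brain and were not called at 24 h. Both comparisons use the same 3 skull controls, so a low control value enters both. At 24 h Msmo1 averaged 29.2 CPM in skull, still under the 59.4 to 73.8 CPM of the brain libraries. Unlike the levels per kilobase, these CPM were scaled within each tissue and are not on a common scale.

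**Figure D5:**
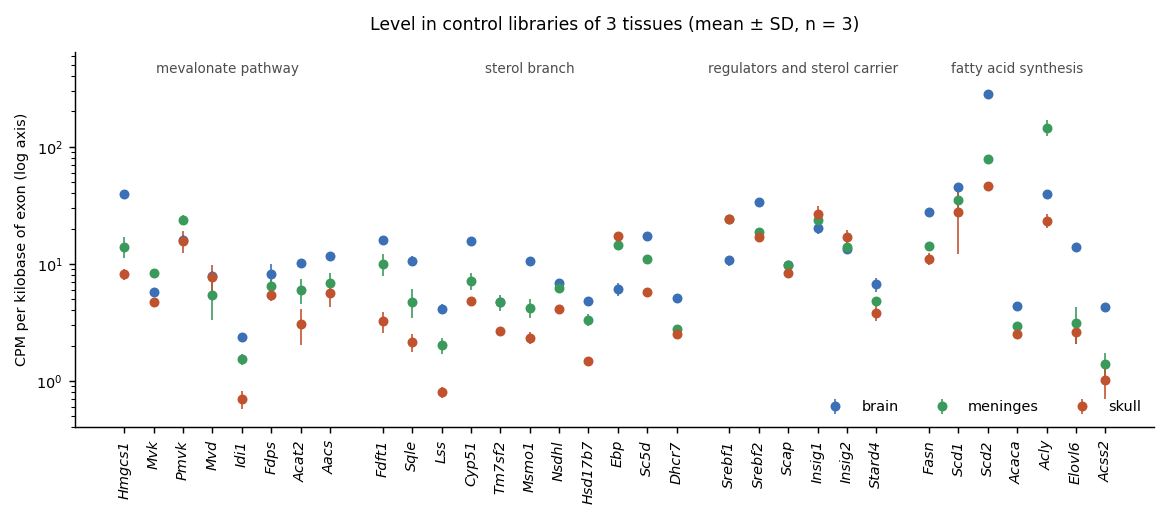
Level in control libraries as CPM per kilobase of exon (log axis, mean ± SD, n = 3) for the 32 genes in brain, meninges and skull. Brain is the highest of the 3 tissues for 25 genes, while Acly, Mvk and Pmvk peak in meninges and Srebf1, Ebp, Insig1 and Insig2 in skull.

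Neighboring pathways were read from lists kept beside the 32 genes. In skull at 24 h, 15 of the 100 genes of these lists that were tested rose and 13 fell, beside 10.6% and 10.4% of all tested genes. The counts of the single lists are small and are given as a description. Genes of sterol efflux and of the liver X receptors, which sense oxysterols, were called only in the downward direction, with 5 of 14 lower. Abca1, which exports cholesterol, went from a mean of 135 to 81.2 CPM (log2 fold change -0.73 ± 0.11, adjusted p = 0.00106), Nr1h2, a liver X receptor, fell by 0.45 on the log2 scale (adjusted p = 0.00253) and Cyp27a1, a sterol hydroxylase, fell by 0.69 (adjusted p = 0.00863). Of 25 tested genes of further fatty acid synthesis, elongation and desaturation, 7 rose and 2 fell. The desaturase Fads1 rose by 0.57 ± 0.09 (adjusted p = 0.0012), the elongase Elovl1 by 0.44 ± 0.08 (adjusted p = 0.00284) and Fads2 by 0.60 ± 0.15 (adjusted p = 0.0131).

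Sterol transport and lipoprotein receptors had 2 of 15 higher and 1 lower: Vldlr, a lipoprotein receptor, rose by 0.75 ± 0.14 (adjusted p = 0.00333), Osbp by 0.26 ± 0.08 and Gramd1a fell by 0.39. Tmem97, a sterol-responsive membrane protein, was the 1 of 9 genes of SREBP processing and sterol sensing that rose (0.70 ± 0.15, adjusted p = 0.00687), and Pdss1 the 1 of 11 of the isoprenoid branch (0.75 ± 0.22, adjusted p = 0.0305). In triglyceride synthesis and storage 1 of 9 rose and 3 fell. Dgat1, which makes triglyceride, fell by 1.18 (adjusted p = 0.00151), Pnpla2, a triglyceride lipase, fell by 0.85 (adjusted p = 0.00371), and Plin2, a lipid droplet coat protein, rose by 0.59 (adjusted p = 0.0150). Fatty acid oxidation had 3 of 17 higher and 2 lower, shares near those of all tested genes. Among the higher were Cpt2 (0.67 ± 0.13, adjusted p = 0.00321) and Cpt1a (0.53 ± 0.10, adjusted p = 0.00338), both carnitine palmitoyltransferases, enzymes of the entry of fatty acids into mitochondria.

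At 0.5 h in skull 6 of the 100 tested genes of these lists fell and none rose, beside 2.94% and 1.96% of all tested genes: Rabggtb, Pgrmc1, Npc2, Gramd1a, Hsd17b12 and Dgat1, the last by 0.76 on the log2 scale (adjusted p = 0.0357). In meninges at 24 h, 7 of 103 genes rose and 9 fell, beside 3.97% and 4.45% of all tested genes. There Tmem97 (0.64 ± 0.15, adjusted p = 0.0254) and Erlin1 (0.63 ± 0.09, adjusted p = 0.00286) rose in the list of SREBP processing and sterol sensing. In the list of sterol efflux 2 genes fell and 1 rose: Abca1 fell by 0.52 (adjusted p = 0.0266), Nr1h2 fell by 0.39 (adjusted p = 0.00603) and Mylip, a ligase that degrades lipoprotein receptors, rose by 0.33 (adjusted p = 0.0471). Mylip was also the 1 gene of these lists called at 0.5 h in meninges (0.47 ± 0.09, adjusted p = 0.0403), and lost its call there in 8 of 9 fits without one library and at 24 h in all 9. In sterol transport Lipa rose by 0.49 and Scarb1 fell by 0.43, in other fatty acid synthesis Fads3 rose by 0.33 and Thrsp fell (adjusted p = 0.0480), and in fatty acid oxidation Cpt1a rose by 0.39 and Cpt1c by 0.47 while Pdk4 fell by 1.76. Triglyceride synthesis and storage had 4 of 10 lower, among them Mogat1, which fell by 1.48 (adjusted p = 0.0138). Dgat1 fell by 0.89 (adjusted p = 0.00264) and Pnpla2 fell by 0.87 (adjusted p = 0.00126). In brain at 24 h, 2 of 100 rose and 1 fell, beside 2.62% of all tested genes called in either direction. Mylip (0.67 ± 0.15, adjusted p = 0.0273), and Vldlr (0.29 ± 0.07, adjusted p = 0.0435) rose and Pnpla2 fell by 0.62 (adjusted p = 0.0273).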

How the data were processed

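Poly(A) RNA was isolated from brain, meninges and skullcap and sequenced on Illumina libraries, per the labels' protocols. The deposited values are whole-number counts per gene symbol. The submitters' processing notes name HISAT2 2.1.0 as a tool and mm10 as the genome. How reads were counted (tool, gene models, strand) is not given in the sources used here, so reads over exons shared by genes may count for either. Irradiation away from the head, which the series describes, was not analysed here.

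Counts were tested with edgeR 4.0.16 (TMM scaling, filterByExpr with a minimum count of 10 and a minimum total of 15, robust quasi-likelihood F test, Benjamini-Hochberg adjustment over all tested genes, threshold 0.05) in R 4.3.3. Comparisons within a tissue used its 9 libraries, and comparisons between tissues used all 27. Each SE was derived from the F statistic and the log2 fold change. CPM use the TMM library sizes of the same fit. Exon lengths, overlaps and shared 50-base stretches come from GENCODE M21 (GRCm38), where 32 of 32 genes matched, and promoters from RefSeq (GRCm38.p6). The members and lists were chosen with earlier results of these data known. In each comparison the called members are named (12 with the smallest p where more are called, 4 nearest where fewer than 4 are), and up to 3 called genes of each companion list. A few others, such as Mvd, Scd1 and Acss2, were named to account for every member. Alternatives were RLE scaling, no filter, DESeq2 1.42.0, limma-voom (limma 3.58.1), the replicate number as a block, other sets of libraries, and each library left out. The fits were tested on simulated counts.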

Additional observations from a re-analysis of the deposited data

Results flagged for a closer look

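The 24 h change against control differed between tissues, by the edgeR test of the difference itself, in 14 genes for skull against brain and in 2 genes for skull against meninges. For skull minus brain, the difference in log2 fold change was 0.98 for Hmgcs1, 1.38 for Idi1, 1.19 for Fdps, 1.09 for Fdft1, 1.18 for Sqle, 0.98 for Lss, 1.20 for Cyp51 and 1.13 for Msmo1. It was 0.57 for Nsdhl, 0.91 for Hsd17b7, 0.68 for Ebp, 0.50 for Srebf2, 0.70 for Stard4 and 0.54 for Fasn. For skull minus meninges it was 1.15 for Fdft1 and 0.82 for Lss.

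Of the 14 genes for skull against brain, 9 kept the call without any one of the 12 libraries compared: Hmgcs1, Idi1, Fdps, Fdft1, Sqle, Lss, Cyp51, Msmo1 and Srebf2. Fasn lost it without the first brain library at 24 h (adjusted p = 0.0505). The calls of Ebp, Nsdhl, Stard4 and Hsd17b7 were lost in 4, 7, 8 and 9 of the 12 fits. For skull against meninges, Fdft1 kept its call in all 12 fits (adjusted p up to 0.0468), and Lss lost it in 9 (adjusted p up to 0.106).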

How the results depend on the processing

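The 19 calls in skull at 24 h against control became 18 with RLE scaling, 20 without a filter, 21 with DESeq2, 21 with limma-voom, 17 in a fit of the 2 groups alone, 20 in a fit of all 27 libraries and 13 to 19 with a library left out, and none reversed. At 24 h against 0.5 h in skull, the 19 calls ran from 11 (without the first 24 h library) to 21 with a library left out. For skull against meninges at 24 h, the 2 calls became 9 with DESeq2, 1 with limma-voom, 1 in a fit of the 18 libraries of both tissues and 1 to 3 with a library left out. Without a filter 1 gene was called in brain at 24 h, 1 in brain at 24 h against 0.5 h and 1 in meninges at 24 h against 0.5 h. DESeq2 called 1 in brain at 24 h, 2 in brain at 24 h against 0.5 h, 1 in meninges at 0.5 h, 2 in meninges at 24 h, 1 in meninges at 24 h against 0.5 h, and 1 for skull against brain at 0.5 h. In meninges at 24 h against 0.5 h, limma-voom and the fit of all 27 libraries each called 1. With a library left out, the calls ran from 0 to 1 in meninges in all 3 comparisons, in skull at 0.5 h and for skull against brain at 0.5 h. The cause was not tested. Per kilobase of the longest transcript, Acly stood at 46.9 CPM in brain and 174 in meninges.

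The replicate numbers were tested as a pairing. Libraries of a tissue with the same number had deviations from their group means that correlated by -0.10 to 0.07 in brain, -0.40 to 0.12 in meninges and -0.14 to 0.06 in skull. Across tissues at the same time, libraries with the same number correlated by -0.02 to 0.07 between brain and meninges, -0.05 to 0.03 between brain and skull and -0.05 to 0.09 between meninges and skull. Libraries with different numbers correlated by -0.06 to 0.02, -0.04 to 0.05 and -0.10 to 0.14 in these pairs of tissues. Between meninges and skull at 24 h the same-number pairs stood at 0.04, 0.09 and 0.09, and all others were negative. Control brain and meninges showed the same order, with 0.06, 0.07 and 0.02. Deviations from a group mean cancel over the libraries of the group, so positive same-number values push the other pairs toward negative ones. The negative values are therefore not separate evidence of a pairing. In the remaining combinations of tissues and time, same-number and other pairs overlapped. Whether tissues came from the same mouse is not settled by these values. With the replicate block, 17 genes were called in skull at 24 h, 17 at 24 h against 0.5 h, 14 for skull against brain at 24 h and 1 for skull against meninges at 24 h. This block gives each replicate number a single effect over all tissues and times of a fit. It therefore does not model tissues taken from the same mouse, and these counts do not bear on that question.

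Depth limits Idi1 most, with 27 to 44 counts in a skull control library.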
